A study of Mus musculus with 8 samples.

Results

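Immune cells of the brain were compared between App NL-G-F mice with chronic colitis and App NL-G-F control mice. Each condition was 1 single-cell RNA library of the 8 in the series. A barcode was kept as a cell with at least 500 UMIs (unique molecular identifiers, which mark single captured transcripts), at least 200 genes and at most 5% of UMIs from mitochondrial genes. Its top hashtag also had to reach 50 counts and 3 times the next hashtag. These rules kept 6700 cells of App control and 5742 of App chronic colitis, together 12442 of the 46314 cells kept over all libraries. Both groups carried the App NL-G-F knock-in, a humanized amyloid precursor protein gene with Swedish, Arctic and Iberian mutations, and both were 16 weeks old by the labels. App control mice drank water alone. App chronic colitis mice went through 3 cycles of 2% dextran sulfate sodium (DSS) for 5 days followed by 5 days of water. Brains were taken after perfusion, and CD45.2+ cells were tagged with hashtag antibodies, sorted and profiled from the 5′ end of their transcripts. An antibody to CD45 had been given into the blood, but whether it had reached a given cell cannot be read from the counts. Values of WT mice without the knock-in, with the same 2 conditions in libraries of their own, are given beside some results.

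The healthy brain holds resident microglia and, at its borders, macrophages, mast cells, innate lymphoid cells and a small number of lymphocytes. DSS damages the colonic epithelium and draws neutrophils and monocytes into the gut. Neutrophils are made in bone marrow, where granule proteins are produced in a fixed order, first the azurophil proteins of promyelocytes, then the secondary and tertiary granule proteins, and last the receptors of mature cells. B cells in bone marrow pass from precursors with surrogate light chain genes to mature cells that carry IgD and CD23.

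Cells were placed in gates by transcripts. The T gate needed Cd3e and Cd3d, the B gate Cd79a and Ms4a1, the NK gate Ncr1 without Cd3e, and the ILC2 (group 2 innate lymphoid cell) gate Gata3 and Il1rl1 without Cd3e, each at 1 UMI or more. The macrophage gate needed C1qa and C1qb, and the neutrophil gate Csf3r with at least 10 UMIs of S100a8. Independent markers were found in the cells chosen. Cd3g was seen in 94.2% of control and 96.3% of chronic colitis T gate cells, Cd79b in 97.4% and 98.9% of the B gate, and Klrb1c in 83.5% and 89.6% of the NK gate. C1qc was seen in 97.0% and 93.3% of the macrophage gate and Lcn2 in 96.1% and 92.0% of the neutrophil gate. Icos, which ILC2 share with T cells, was seen in 44.8% and 46.6% of the ILC2 gate. Markers of other lineages were also present. Cd3g was seen in 16.5% and 14.0% and Cd79b in 14.8% and 15.9% of the macrophage gate, and the neutrophil gene S100a9 in 14.8% and 21.8% of the T gate. Ptprc, which encodes the CD45 used for sorting, was seen in 65.4% of all control and 70.1% of all chronic colitis cells. No gate held 45.4% of control and 40.8% of chronic colitis cells, and several gates held 1.28% and 1.11%.

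The median cell had 2928 UMIs in App control and 3350 in App chronic colitis. With 1 library per condition no test between conditions was possible, and no p-value is given. Intervals are 95% intervals for counting error only, exact for shares and for CPM (UMIs of a gene, with each sum of UMIs brought to one common total), and by Newcombe's method for differences. Each library held 4 hashtags, numbered 4 to 7. The sources do not tie a hashtag to a mouse, and they give fewer mice than hashtags for App chronic colitis, so hashtag groups show spread but are not animals. In both libraries, hashtag groups 4 and 5 had between 827 and 1029 CPM of 10 immediate-early genes in the T gate, against 3803 to 4984 CPM in groups 6 and 7. Changes are therefore also given within each of these pairs of groups. Control group 5 stood apart. Of its 1717 cells, 60.7% fell in no gate and 12.8% in the T gate, and its haemoglobin genes reached 5158 CPM. The part of handling in these differences was not tested. Between the libraries, 47 barcodes were shared, against 52.2 for barcodes drawn at random.

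Among the 6 gates, B cells and neutrophils took larger shares of the chronic colitis library, and NK cells and macrophages smaller ones. The B gate went from 13.7% (95% CI 12.9 to 14.5) of control to 18.2% (17.2 to 19.3) of chronic colitis cells, a difference of 4.55 percentage points (3.24 to 5.86). The neutrophil gate went from 3.06% (2.66 to 3.50) to 4.60% (4.07 to 5.17), a difference of 1.54 points (0.851 to 2.24). NK cells differed by -1.19 points (-2.01 to -0.367) and macrophages by -0.666 points (-1.29 to -0.0345). The T gate held 25.0% and 25.3%, and the ILC2 gate 4.43% and 4.30%, with both intervals of the difference spanning 0. For every gate, the ranges of the 4 hashtag groups overlapped between the libraries, so no gate's share differed by more than hashtag groups of 1 library did. Without control group 6 the macrophage difference was 0.405 points, and without control group 4 the NK difference was -0.191 points.

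**Figure D1:**
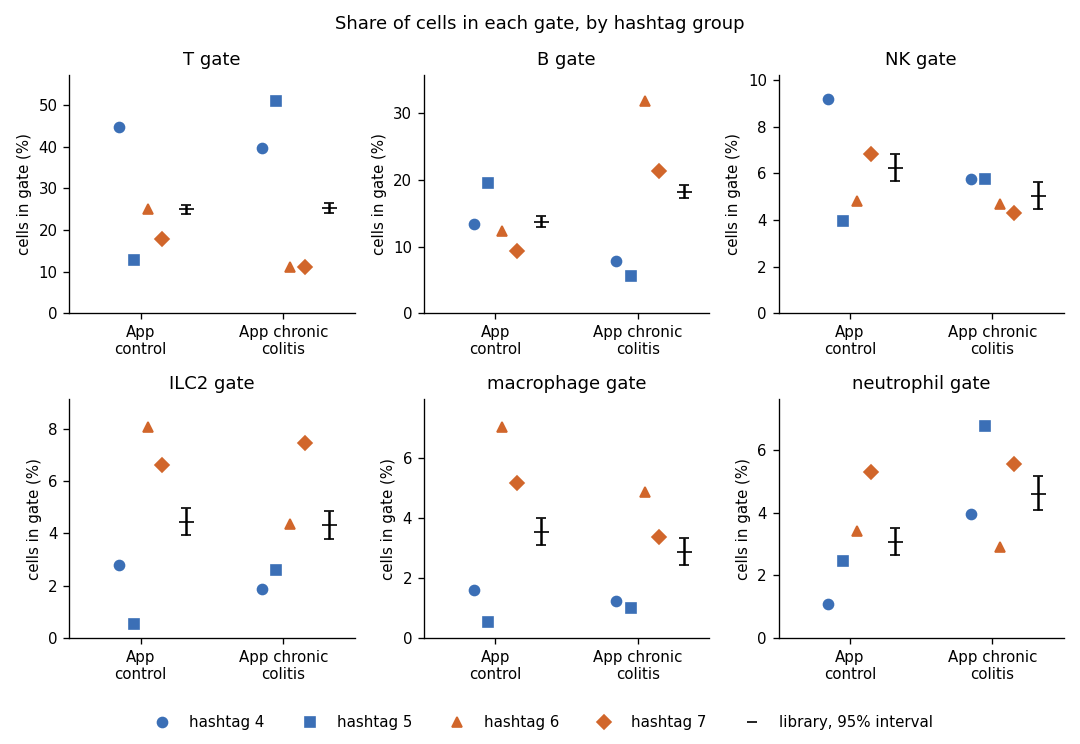
Percent of kept cells in each gate (y axis) for App control and App chronic colitis. Coloured points are the 4 hashtag groups, blue for hashtags 4 and 5 and orange for 6 and 7, and black marks are the whole library with its 95% counting interval. The B gate points of chronic colitis split into 5.67% and 7.91% for the blue groups and 21.3% and 31.8% for the orange ones.

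The B gate share moved in opposite ways in the 2 pairs of hashtag groups. In control, groups 4, 5, 6 and 7 held 13.4%, 19.6%, 12.4% and 9.32% B gate cells. In chronic colitis they held 7.91%, 5.67%, 31.8% and 21.3%. The means over groups were 13.7% ± 4.30 (SD, n = 4) and 16.7% ± 12.2 (SD, n = 4). Within groups 4 and 5 the pooled share was 9.53 points lower in chronic colitis (interval of the difference -11.2 to -7.89), and within groups 6 and 7 it was 15.8 points higher (14.0 to 17.7). Neither pair overlapped between the libraries. The rise over the whole library rested on group 6 of chronic colitis, without which the difference was -0.951 points. In WT mice, the same shares were 14.6% in control and 18.2% in chronic colitis. The difference was 6.66 points (5.10 to 8.20) in groups 6 and 7 and -12.8 points (-15.0 to -10.0) in groups 4 and 5. The last value pooled 31 cells of group 4 and 386 of group 5 in WT chronic colitis, where group 4 was too small to be used alone.

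Neutrophil gate shares of the libraries separated in groups 4 and 5 but not in groups 6 and 7. Control groups 4 to 7 held 1.07%, 2.45%, 3.40% and 5.29%, and chronic colitis groups held 3.95%, 6.77%, 2.89% and 5.56%, with means of 3.05% ± 1.77 and 4.79% ± 1.71 (SD, n = 4 each). The pooled difference was 3.34 points (2.37 to 4.38) in groups 4 and 5, which did not overlap. It was -0.178 points (-1.18 to 0.825) in groups 6 and 7, which did. WT libraries held 2.31% and 6.61%. Their groups 6 and 7 were at 4.40% and 3.52% in control and at 9.28% and 2.29% in chronic colitis. Group 6 held 310 of the 352 neutrophil gate cells of WT chronic colitis, so WT neutrophil values below rest mostly on it.

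The T gate shares separated in groups 6 and 7. The T gate share was 44.7%, 12.8%, 25.1% and 18.0% in control groups 4 to 7 and 39.7%, 51.0%, 11.2% and 11.2% in chronic colitis. Groups 6 and 7 did not overlap between libraries and were 10.1 points lower in chronic colitis (interval -11.9 to -8.36). Groups 4 and 5 went from a pooled 28.6% to 44.3%, a difference of 15.8 points (13.3 to 18.3), but overlapped. The whole-library T difference turned negative when control group 5 or 7, or chronic colitis group 4 or 5, was left out, with -5.15 points without chronic colitis group 5. Macrophage gate cells in groups 6 and 7 went from 7.05% and 5.18% to 4.88% and 3.36%, a pooled difference of -1.94 points (-3.02 to -0.857) without overlap. NK cells in the same groups went from 4.81% and 6.85% to 4.70% and 4.28%. The WT values within groups 6 and 7 were -10.9 points for T cells, -4.13 for macrophages and -2.77 for NK cells, without overlap in any of the 3.

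Gene levels within a gate were compared as the summed UMIs of its cells, in CPM of the gate. A gene was measured with at least 50 UMIs over both libraries and 50 CPM in either. Ratios are log2 of (CPM + 10), chronic colitis over control, a scale that understates changes of low genes. A gene counted as higher or lower when it changed at least 1.5-fold and the CPM of the hashtag groups with at least 20 gate cells did not overlap between libraries. This is a rule of size and spread, not a test.

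In the T gate, 4 of 3131 genes were higher in chronic colitis (0.128%) and 7 lower (0.224%). Of these 11, 7 were immunoglobulin variable segments. Of the 4 higher genes, 3 encode linker histones, which bind DNA between nucleosomes. Hist1h1e (GRCm38 chr13:23620629-23622558) was at 182, 208, 166 and 187 CPM in control groups 4 to 7 and at 260, 311, 340 and 328 CPM in chronic colitis. Every chronic colitis group lay above every control group, and the log2 ratio of the library sums was 0.69. Hist1h1d went from 55.2 CPM (49.5 to 61.5) to 102 CPM (93.3 to 110), a log2 ratio of 0.77. The third, Hist1h1b, went from 72.9 to 157 CPM and is named after its values were seen. It lay outside the rule for naming genes, which leaves out levels that free RNA from other cells can give. Over all chronic colitis cells, Hist1h1e was at 560 CPM, Hist1h1d at 183 CPM and Hist1h1b at 424 CPM, each above its T gate level. The part of free RNA in these values was not tested. The WT log2 ratios were 0.43 for Hist1h1e and 0.80 for Hist1h1d.

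Apoe, a lipid carrier made mainly by macrophages and microglia, was the only lower gene that was not a receptor segment. Its T gate level was 134, 202, 1189 and 281 CPM in control groups and 90.3, 124, 133 and 29.3 CPM in chronic colitis, with a log2 ratio of -2.06. The groups did not overlap, but control group 6 was far above the rest, and without it the log2 ratio was -0.85. C1qa and C1qb, which macrophages make, reached 265 and 346 CPM in that group. The macrophage marker list summed to 304 to 2074 CPM over the control groups and 71.4 to 252 CPM over the chronic colitis groups in these T gate cells, and its part in the Apoe result was not tested. In WT mice, Apoe had a log2 ratio of 0.46.

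Over all hashtag groups together, no gene on any of the T cell lists counted as higher or lower. These lists held CD4 and CD8 markers, regulatory and gamma-delta T cell genes, naive and effector genes, cytokines, checkpoint receptors and homing receptors. Listed genes such as Il17a and Cd163l1, given below, did separate within a pair of groups. Cd8a stood at 485 CPM (468 to 503) in control and 574 CPM (554 to 595) in chronic colitis, and was seen in 44.2% and 44.3% of T gate cells. Ccl5, a chemokine of memory and effector T cells, was at 5286 and 5949 CPM, and Gzmk, a granzyme of CD8 T cells, at 212 and 211 CPM. Interferon response also showed no call, with 12 of 18 listed type I interferon genes measured and a median log2 ratio of 0.07 against 0.08 over all measured genes. Foxp3, which defines regulatory T cells, was at 11.9 and 13.6 CPM.

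Il17a, which encodes interleukin 17A and is made by Th17 and a subset of gamma-delta T cells, was at 80.8 and 2462 CPM in control groups 6 and 7 and at 14.2 and 35.7 CPM in chronic colitis. Groups 4 and 5 stayed at or below 2.01 CPM in both libraries, which is near or under the 1.21 to 4.03 CPM that a count of 0 allows there. The 2 libraries therefore overlapped over all 4 groups and Il17a was not counted as lower, although the library sums were 546 and 8.10 CPM. Control group 7 alone carried most of the transcripts. The share of T gate cells with Il17a in groups 6 and 7 was 9.80% in control and 2.44% in chronic colitis, or 7.45% and 2.17% after every cell was thinned to 1000 UMIs. Cd163l1, which marks interleukin 17-producing gamma-delta T cells, was seen in 18.6% and 23.0% of these T gate cells, or 14.5% and 17.7% after thinning. In groups 4 and 5, Cd163l1 was at 32.6 and 10.8 CPM in control and at 51.0 and 92.4 CPM in chronic colitis. That pair did not overlap and had a log2 ratio of 1.13. B gate cells served as the reference for free RNA. Over all hashtag groups, none of 896 and 1022 had Il17a, which allows a share of up to 0.335% and 0.294%. Groups 6 and 7 held 355 of the 917 B gate cells of control and 876 of the 1047 of chronic colitis, so the limit is looser for that pair. Thinning left out 15 and 8 T gate cells. Median depths over all hashtag groups were 3039.5 and 3214 UMIs in the T gate and 2077 and 2615.5 UMIs in the reference. In WT mice, Il17a stood at 247 CPM in control and 59.2 CPM in chronic colitis.

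B cells of the chronic colitis library carried less Ighd, a transcript of mature B cells. In the B gate, 6 of 3065 genes were higher (0.196%) and 14 lower (0.457%). Ighd (GRCm38 chr12:113406604-113416324), the constant gene of IgD, was at 139, 169, 144 and 87.1 CPM in control groups 4 to 7 and at 59.9, 86.5, 44.2 and 47.5 CPM in chronic colitis. The highest chronic colitis group lay just under the lowest control group. The library sums were 136 CPM (123 to 150) and 48.7 CPM (42.2 to 56.0), a log2 ratio of -1.31, and WT mice had a log2 ratio of -0.67. Ighd was seen in 25.7%, 28.0%, 33.7% and 29.0% of the B gate cells of control groups and in 13.2%, 14.0%, 13.7% and 16.3% of those of chronic colitis. After thinning to 1000 UMIs, which left out 24 and 20 cells, the group values were 12.7% to 16.6% and 3.60% to 7.41%, still without overlap. In T gate cells, where IgD is not made, Ighd was seen in 0.302% and 0.140%. Median depths were 2094 and 2640 UMIs in the B gate.

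Other maturation genes were less uniform. Ighd was the only one of 6 measured mature B cell markers that counted as lower. Fcer2a, which encodes the CD23 of mature follicular B cells, went from 229 and 175 CPM to 65.9 and 61.0 CPM in groups 4 and 5, but groups 6 and 7 were at 135 and 49.6 CPM in control and 102 and 93.6 CPM in chronic colitis. Within groups 4 and 5, 119 of 3550 B gate genes were higher (3.35%) and 104 lower (2.93%). Cd24a, which immature B cells carry at high level, was seen in 69.1% of control and 90.1% of chronic colitis B gate cells, with 63.7% to 75.3% over control groups and 82.5% to 92.0% over chronic colitis groups. These ranges did not overlap, but after thinning they did, at 44.0% to 57.9% and 57.4% to 71.3%. Vpreb3, a precursor B cell gene that stays on in immature B cells, was seen in 65.0% and 81.4% of B gate cells, or 51.7% and 61.9% after thinning, and its groups overlapped. In T gate cells, Cd24a was seen in 3.99% of both libraries, and Vpreb3 in 2.05% and 2.52%.

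**Figure D2:**
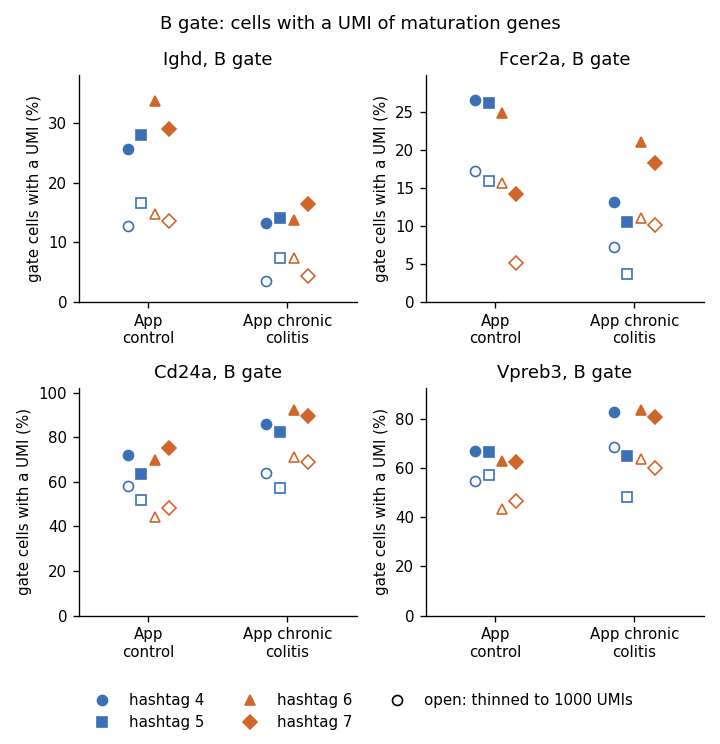
Percent of B gate cells with at least 1 UMI of Ighd, Fcer2a, Cd24a or Vpreb3 (y axis) in each hashtag group of App control and App chronic colitis. Filled points use all UMIs and open points use cells thinned to 1000 UMIs. Filled and open Ighd points of chronic colitis, at up to 16.3% and 7.41%, lie below the lowest control points of the same kind, at 25.7% and 12.7%.

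Antigen presentation genes of B cells did not clear the spread between groups. Of 7 measured MHC class II genes none was counted, with a median log2 ratio of -0.46 against -0.02 over all measured genes. H2-Aa, the class II alpha chain, was at 2571, 2833, 2558 and 1815 CPM in control and 1293, 2182, 1349 and 1669 CPM in chronic colitis, so only chronic colitis group 5 reached into the control range. H2-Eb1 had a log2 ratio of -0.73, while Cd74, the invariant chain that accompanies class II, was at 15142 and 15829 CPM. In WT mice, the log2 ratio of H2-Aa was -0.76.

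The other named B gate genes were small changes. Them6 rose from 76.2 to 141 CPM (log2 ratio 0.81), Dusp6, a phosphatase that restrains ERK signalling, from 39.5 to 71.6 CPM (0.72), and Grn, which encodes progranulin, from 134 to 218 CPM (0.66). Over all cells, Grn was at 233 CPM in control and 241 CPM in chronic colitis, above its B gate levels. The part of free RNA in the Grn values was not tested. Add3, a membrane skeleton gene, fell from 124 to 70.4 CPM, and Tuba1a, a tubulin, from 55.9 to 30.3 CPM. Of the 20 genes, 5 were immunoglobulin variable segments and 6 were ribosomal or mitochondrial. Secretory transcripts followed single groups. Jchain, which joins IgM and IgA into polymers, was at 33.8, 3391, 2654 and 12080 CPM in control and 1395, 3058, 13158 and 8023 CPM in chronic colitis, so the ranges overlapped in large part, with chronic colitis group 6 above every control group. It was seen in 9.81% and 8.31% of B gate cells, or 6.27% and 5.55% after thinning, and in 9.12% and 5.25% of T gate cells, which do not make it.

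Over all hashtag groups together, NK cells differed little. In the NK gate, 8 of 3465 genes were higher (0.231%) and 11 lower (0.317%), and no member of the cytotoxic, maturation or ILC1-like lists was among them. The 17 measured cytotoxic and killer receptor genes had a median log2 ratio of 0.09 against 0.02 over all measured genes. Nkg7, a granule protein of killer cells, was at 2325 CPM (2248 to 2403) in control and 2566 CPM (2475 to 2659) in chronic colitis, and Gzma, granzyme A, at 2000 and 2329 CPM. Klrb1c, which encodes NK1.1, was at 666 and 791 CPM. Gzmb, granzyme B, was at 667 and 468 CPM, with groups at 404 to 1092 CPM in control and 327 to 820 CPM in chronic colitis. Within the pairs of hashtag groups, Il7r and Gzmc of the ILC1-like list moved more. In groups 4 and 5, 108 of 3591 genes were higher (3.01%) and 65 lower (1.81%). In groups 6 and 7, 93 of 3459 genes were higher (2.69%) and 154 lower (4.45%). Il7r had log2 ratios of 1.40 in groups 4 and 5 and -1.02 in groups 6 and 7, without overlap in either pair. Gzmc had log2 ratios of -0.21 and 1.04 in the same order, with overlap in groups 4 and 5 only.

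The named NK gate genes were all low in level. Mrpl16, a mitochondrial ribosome protein, was at 28.7 CPM in control and 57.8 CPM in chronic colitis (log2 ratio 0.81). Fam53a went from 30.1 to 54.4 CPM and Mob2 from 32.8 to 57.8 CPM. Mosmo, which dampens Hedgehog signalling, fell from 56.1 to 27.2 CPM, Taf1d, of the RNA polymerase I machinery, from 72.2 to 39.1 CPM, and Zfand5, a proteasome-linked protein, from 83.5 to 45.9 CPM. Each rested on 125 UMIs or fewer per library. The WT log2 ratios were 0.09 for Mrpl16, -0.21 for Fam53a and -0.62 for Mob2. They were -0.54 for Mosmo, 0.30 for Taf1d and -0.27 for Zfand5, so Fam53a, Mob2 and Taf1d went the other way. Neutrophil transcripts in NK gate cells differed between groups, with S100a9 at 7300 CPM in chronic colitis group 6 and 61.6 to 375 CPM in the other chronic colitis groups, and their part in the gene values was not tested.

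The order of Calca levels in the ILC2 gate differed between hashtag groups. Calca encodes calcitonin and the neuropeptide CGRP, which ILC2 make. It was at 2394 and 6010 CPM in control groups 6 and 7 and at 202 and 276 CPM in chronic colitis. In group 4 it was at 445 CPM in control and 1350 CPM in chronic colitis, and chronic colitis group 5 was at 1912 CPM, while control group 5 had too few ILC2 gate cells, 9. The library sums were 3335 CPM (3216 to 3457) and 513 CPM (470 to 560), but with the opposite order in group 4 the gene was not counted as lower. Within groups 6 and 7 alone, 141 of 3484 genes were higher (4.05%) and 274 lower (7.86%). In groups 6 and 7, 73.0% and 91.3% of control ILC2 gate cells had a Calca transcript, against 41.7% and 42.6% in chronic colitis. Thinned to 1000 UMIs, these were 66.4% and 84.8% against 19.4% and 19.0%. The reference share in B gate cells was 1.42% in control and 0.479% in chronic colitis, at median depths of 2092 and 2636.5 UMIs, against 2466 and 3347 UMIs in the ILC2 gate. Thinning left out 14 control and 1 chronic colitis ILC2 gate cells. WT libraries were at 3386 and 469 CPM.

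Areg, which encodes the epidermal growth factor family member amphiregulin, a tissue repair product of ILC2, ran the other way in groups 6 and 7. It was at 314 and 311 CPM in control and 578 and 559 CPM in chronic colitis, and at 98.2 CPM or less in groups 4 and 5. Cells with Areg in groups 6 and 7 were 42.9% and 38.3% in control and 51.4% and 55.7% in chronic colitis, or 25.0% and 19.6% against 33.3% and 34.7% after thinning. The groups did not overlap within this pair, where 4.05% of measured genes were higher, but did over the library. Il5 and Il13, the cytokines that define type 2 responses, were sparse. Il13 was at 42.5 CPM in both libraries, and Il5 at 77.1 and 20.3 CPM with 198 CPM in control group 7. Rora, a transcription factor of ILC2 development, was at 332 and 178 CPM.

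**Figure D3:**
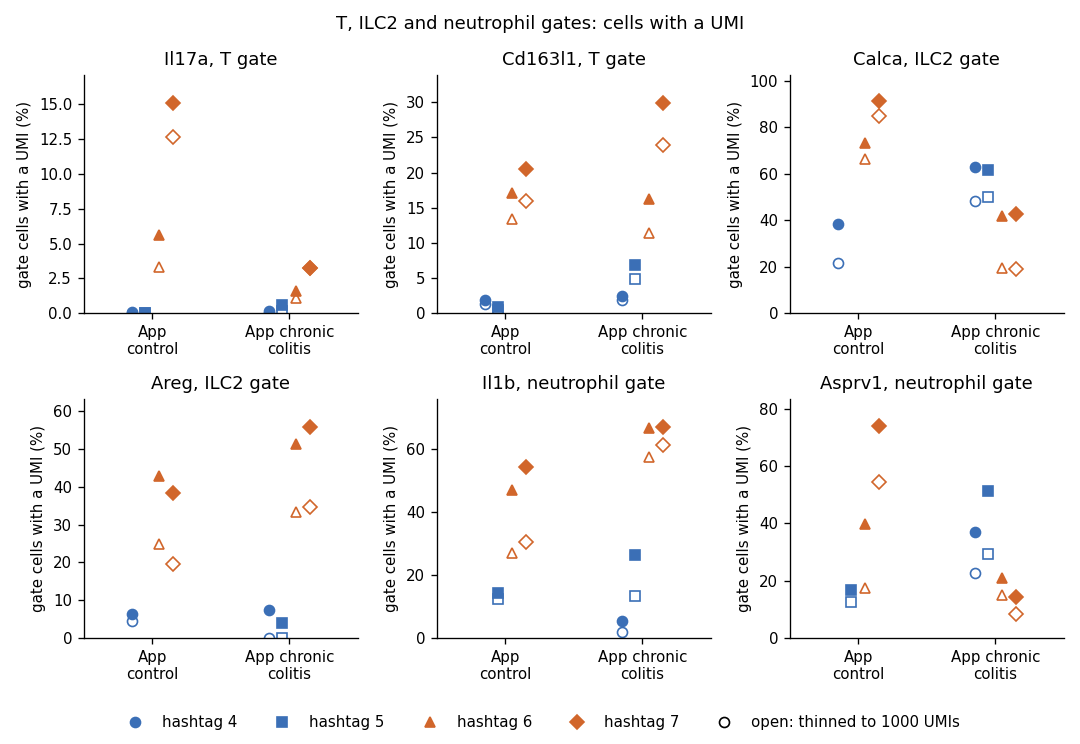
Percent of gate cells with at least 1 UMI of the named gene (y axis) in each hashtag group, for Il17a and Cd163l1 in the T gate, Calca and Areg in the ILC2 gate, and Il1b and Asprv1 in the neutrophil gate. Filled points use all UMIs and open points cells thinned to 1000 UMIs. In the orange groups, Calca points of chronic colitis, at 41.7% and 42.6%, lie below control, at 73.0% and 91.3%, and Areg points lie above.

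Over the ILC2 gate, 14 of 3390 genes were higher (0.413%) and 36 lower (1.06%), and no member of the ILC2 marker list or of the type 2 cytokine and alarmin receptor list was among them. The 13 measured members of the second list had a median log2 ratio of -0.01. Hyou1, a chaperone of the endoplasmic reticulum, fell from 64.8 to 16.2 CPM (log2 ratio -1.51), Kti12, a tRNA modification gene, from 84.9 to 31.4 CPM, and Isg20, an interferon-induced exonuclease, from 63.7 to 22.3 CPM. Rbm14, a nuclear RNA-binding protein, rose from 23.5 to 58.7 CPM, Mns1 from 44.7 to 99.2 CPM and Mpst, a sulfur metabolism enzyme, from 34.6 to 74.9 CPM. The WT log2 ratios of Hyou1 and Rbm14 were 0.09 and -0.23. Foreign transcripts also differed in this gate. Hbb-bs, a haemoglobin gene, was at 3403 CPM in control group 7 and S100a9 at 2903 and 1973 CPM in chronic colitis groups 6 and 7, and their part in these values was not tested.

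In hashtag groups 6 and 7, macrophages of the chronic colitis library carried more Pf4, Cbr2 and Folr2, which mark border macrophages. The gate had usable groups 4, 6 and 7 in control and 6 and 7 in chronic colitis. With so few groups the rule was passed more easily, by 67 of 3143 genes as higher (2.13%) and 65 as lower (2.07%). Of 7 measured border macrophage genes, 3 were higher and none lower, with a median log2 ratio of 0.60 against 0.02 over all measured genes. Pf4, a chemokine of border macrophages, was at 896, 396 and 193 CPM in control groups 4, 6 and 7 and at 982 and 1133 CPM in chronic colitis groups 6 and 7. Cbr2, a carbonyl reductase, was at 363, 309 and 172 CPM against 473 and 617 CPM, and Folr2, a folate receptor, at 77.9, 50.4 and 15.8 CPM against 94.6 and 137 CPM. Control group 4 lay closest to chronic colitis for all of them. Mrc1, the mannose receptor CD206, was at 831, 547 and 336 CPM and 734 and 686 CPM and was not counted, and Lyve1 and Cd163 had log2 ratios of -0.20 and 0.01. In WT mice, the log2 ratios were 0.81 for Pf4, 0.70 for Folr2 and -0.24 for Cbr2.

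Of 5 measured monocyte genes, none was counted, with a median log2 ratio of -1.13. Ccr2, the receptor that brings monocytes into tissue, was at 486 and 248 CPM in control groups 6 and 7 and 238 and 270 CPM in chronic colitis. Chil3, a chitinase-like protein of monocytes, was at 155 and 846 CPM in control groups 6 and 7 and at 40.3 CPM or less in those of chronic colitis. Control group 4 had none, where a count of 0 allows up to 38.9 CPM. Over all control cells Chil3 was at 784 CPM, above the 459 CPM of the macrophage gate. Within groups 6 and 7, 180 of 3049 genes were higher (5.9%) and 183 lower (6.0%). S100a9, a neutrophil gene, was at 5988 CPM in the macrophage gate of control group 7, and its part in these values was not tested.

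**Figure D4:**
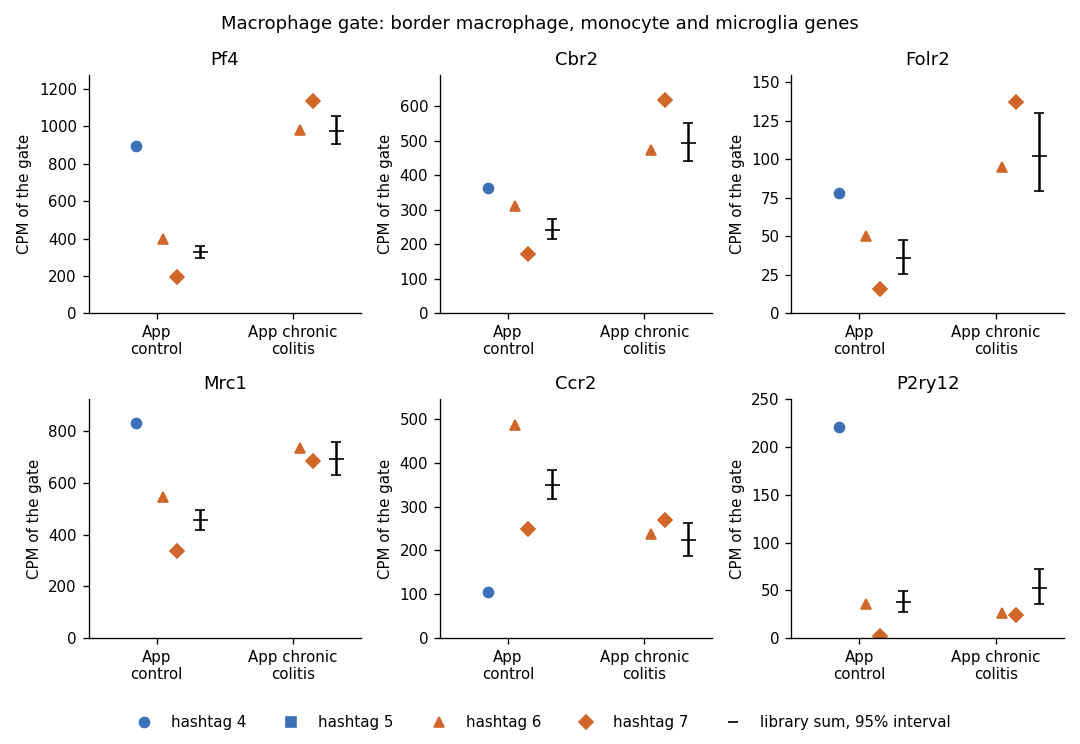
CPM of the macrophage gate (y axis) for border macrophage genes Pf4, Cbr2, Folr2 and Mrc1, the monocyte gene Ccr2 and the microglia gene P2ry12. Points are hashtag groups with at least 20 gate cells, and black marks are library sums with 95% counting intervals. The 2 chronic colitis points lie above all 3 control points for Pf4, Cbr2 and Folr2 but not for Mrc1.

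None of 6 measured microglia genes was counted, but their median log2 ratio of library sums was 0.56, near the 0.60 of the border macrophage genes. All 6 had a ratio over 0. The 6 measured genes of the general macrophage list did too, with a median of 0.43. Higher library levels were thus not particular to border macrophage genes. P2ry12, a receptor of resting microglia, was at 221 CPM in control group 4 and at 1.76 to 36.0 CPM in the other groups of both libraries. Of 11 measured genes of disease-associated microglia, a state described around amyloid plaques, 2 were higher and 1 lower. Axl, a receptor for dying cells, rose from 111 to 183 CPM and Itgax, which encodes CD11c, from 47.7 to 77.8 CPM, while Cst7, a protease inhibitor, fell from 53.4 to 29.0 CPM with control group 4 at 389 CPM. Apoe was at 13534 and 14139 CPM and Trem2, the lipid receptor of the same state, at 286 and 352 CPM. Clec7a was not analysed here.

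Retnla, a secreted marker of alternatively activated macrophages (GRCm38 chr16:48842551-48844461), had the largest log2 ratio of the named genes of the gate, 3.43, from 21.0 CPM (13.7 to 30.8) to 325 CPM (283 to 372). Its 213 UMIs in chronic colitis were uneven. Group 5 held 124 of them in 10 gate cells, too few for the rule, and groups 6 and 7 were at 91.3 and 246 CPM. All control transcripts lay in group 6, at 46.8 CPM, and without that group the log2 ratio was 5.07. In WT mice, its log2 ratio was -0.31. Serpinf1, a secreted protease inhibitor family member that fibroblasts also make, rose from 25.1 to 140 CPM, and Lmna, a nuclear lamin, from 17.8 to 77.8 CPM. Their WT log2 ratios were 1.42 for Serpinf1 and -1.08 for Lmna. The fibroblast list summed to 734 CPM in chronic colitis group 6, where Serpinf1 was highest at 235 CPM, and to 35.2 CPM or less in control groups.

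Of the macrophage gate genes that counted as lower and met the rule for naming, 3 fell most. Thbs1, a matrix protein made by activated monocytes, fell from 93.8 CPM (77.5 to 113) to 9.16 CPM (3.36 to 19.9), a log2 ratio of -2.44. Nr4a2, a nuclear receptor induced on activation, fell from 80.1 to 7.63 CPM and Apoc2, an apolipoprotein, from 51.8 to 9.16 CPM. Over the list of 10 immediate-early genes, none was counted, and the median log2 ratio was -0.01. Itgam, the CD11b chain, fell from 239 to 125 CPM and Tap2, a peptide transporter for MHC class I, from 115 to 71.7 CPM. Tsc22d3, a glucocorticoid-induced gene, rose from 370 to 620 CPM. The WT log2 ratios of Thbs1, Apoc2 and Itgam were -1.66, -1.60 and -1.15, and that of Tsc22d3 was -0.39.

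Neutrophil gate cells of the chronic colitis library held less Ngp and Ltf, of the secondary granules, and more Ly6g and Myc, though Myc stayed below its level over all cells. In the neutrophil gate, 19 of 2426 genes were higher (0.783%) and 13 lower (0.536%), and control group 4 had too few cells, 18, to be used. Among 12 secondary and tertiary granule genes, 2 were lower and none higher, with a median log2 ratio of -0.60 against 0.16 over all measured genes. Ngp, neutrophilic granule protein, was at 25024, 27806 and 34279 CPM in control groups 5 to 7 and at 17713, 19503, 21282 and 24410 CPM in chronic colitis groups 4 to 7. Ltf, lactoferrin, was at 6176, 7081 and 9272 CPM and at 5896, 5289, 4526 and 4541 CPM. In both genes the groups did not overlap, though the closest groups were near each other. Ltf was seen in 70.2% and 52.7% of gate cells, or 62.8% and 48.8% after thinning, with 0.720% and 3.17% of T gate cells as reference. Median depths were 8902 and 4751 UMIs, and thinning left out 6 and 16 cells. In WT mice, the log2 ratios were -0.70 for Ngp and -1.11 for Ltf.

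Azurophil granule genes were at higher library levels but overlapped. Of 7 measured, none was counted, with a median log2 ratio of 1.24. Mpo, myeloperoxidase, was at 3863, 1813 and 418 CPM in control groups 5 to 7 and at 3429, 4193, 5776 and 2768 CPM in chronic colitis, and Elane, neutrophil elastase, at 4420, 2716 and 853 CPM against 4256, 4321, 7359 and 3268 CPM. For both, the difference lay in groups 6 and 7, and control group 5 was as high as chronic colitis. In WT mice, Mpo was at 614 and 4351 CPM.

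Of 14 mature neutrophil genes measured, 2 were higher and none lower, with a median log2 ratio of 0.61. Ly6g, the surface marker of mouse neutrophils, was at 557, 405 and 511 CPM in control and 654, 1476, 599 and 628 CPM in chronic colitis. Retnlg and Cxcr2, which rise as neutrophils mature, had log2 ratios of 0.64 each and overlapped. In WT mice, the log2 ratio of Ly6g was -0.40.

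**Figure D5:**
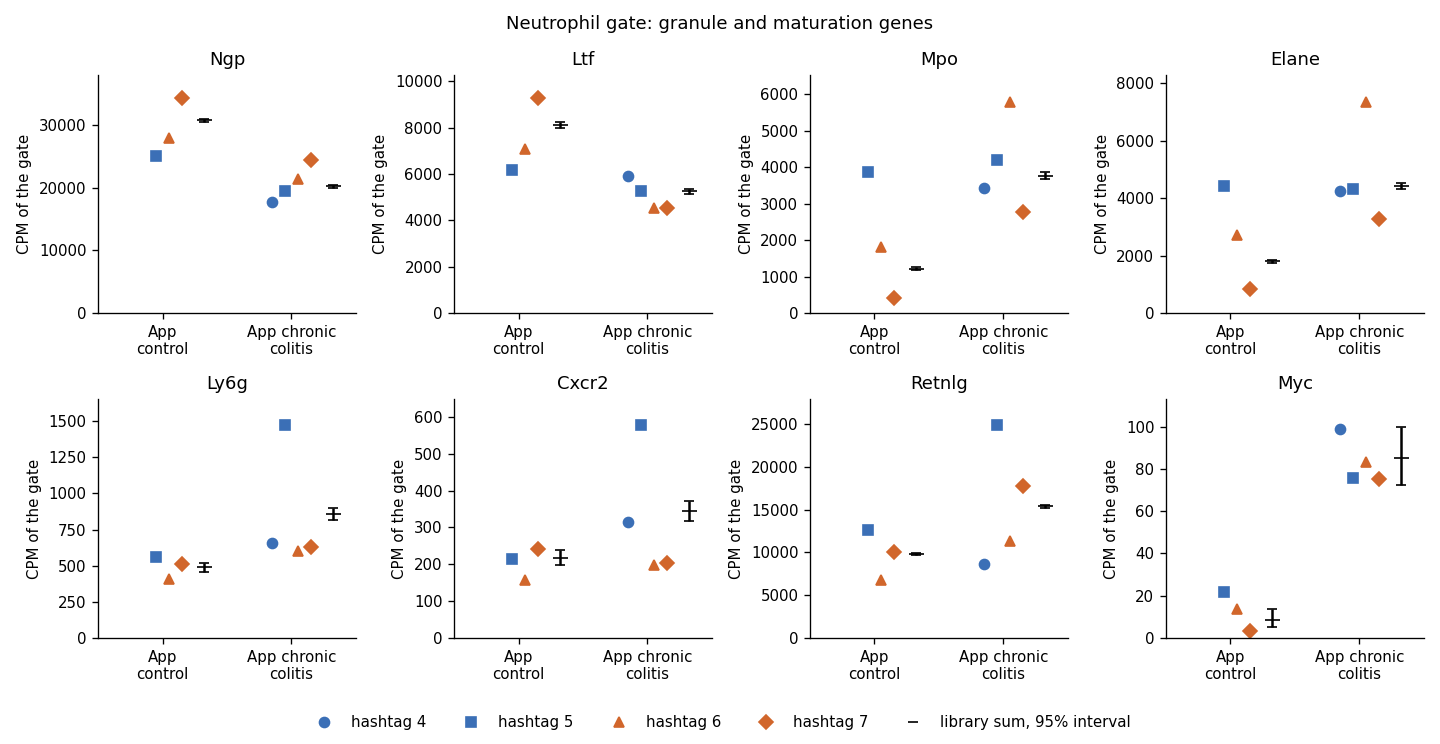
CPM of the neutrophil gate (y axis) for granule genes Ngp, Ltf, Mpo and Elane, maturation genes Ly6g, Cxcr2 and Retnlg, and Myc. Points are hashtag groups with at least 20 gate cells, and black marks are library sums with 95% counting intervals. Myc points lie at 3.43 to 21.9 CPM in control and 75.2 to 98.9 CPM in chronic colitis.

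Myc, a transcription factor of growth and division (GRCm38 chr15:61985391-61990374), had the largest rise of the named neutrophil gate genes. It was at 21.9, 13.5 and 3.43 CPM in control groups 5 to 7 and at 98.9, 75.9, 83.1 and 75.2 CPM in chronic colitis, a log2 ratio of 2.36. All chronic colitis groups lay more than 3 times above the highest control group. In WT mice Myc went from 6.15 to 104 CPM, with 115 CPM in group 6 and 24.0 CPM in group 7 of chronic colitis. Stfa2l1, a stefin protease inhibitor with close paralogs that can share reads, rose from 96.4 to 239 CPM, and Fubp1, an activator of Myc transcription, from 24.2 to 69.6 CPM, with a log2 ratio of 1.22, or 0.79 without control group 7. Over all chronic colitis cells, Myc was at 117 CPM and Fubp1 at 110 CPM, each above its neutrophil gate level. The part of free RNA in the Myc and Fubp1 values was not tested. Fn1, fibronectin, fell from 244 to 72.9 CPM. Hist1h2ap, a histone gene with close paralogs that can share reads, fell from 105 to 50.6 CPM, where its WT log2 ratio was 3.47. Ube2c, a ubiquitin enzyme of mitosis, fell from 247 to 128 CPM, and was the only one of 16 measured cell-cycle genes to be counted, with a WT log2 ratio of 0.89. Mki67, a marker of dividing cells, was at 163 and 141 CPM. MHC class II transcripts, which neutrophils make little of, were also lower, with Cd74 at 509 to 660 CPM over control groups and 5.73 to 494 CPM over chronic colitis groups, and it is named after its values were seen.

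Il1b levels of neutrophils separated within groups 6 and 7, where with so few groups the rule was passed more easily. Of 2529 genes measured in this pair, 412 were higher (16.3%) and 152 lower (6.01%). Il1b, which encodes interleukin 1 beta, was at 538 and 654 CPM there in control and 2261 and 2730 CPM in chronic colitis, and at 78.0 CPM or less in groups 4 and 5 of both libraries. It was seen in 47.2% and 54.3% of gate cells of these control groups and 66.7% and 67.0% of those of chronic colitis, or 26.9% and 30.4% against 57.5% and 61.4% after thinning. T gate cells had it in 1.56% and 1.17%. Asprv1, a protease of maturing neutrophils chosen after its values were seen, was seen in 39.6% and 73.9% of gate cells of control groups 6 and 7 and in 20.8% and 14.3% of those of chronic colitis, or 17.3% and 54.3% against 15.0% and 8.43% after thinning, with 0.180% and 0.344% of T gate cells. In group 5 the order was opposite, at 16.7% and 51.5%.

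Cells outside every gate held transcripts of precursors and other myeloid cells. In 3040 such cells of control and 2341 of chronic colitis, Mpo was at 827 and 1727 CPM, Lyz2, a lysozyme of myeloid cells, at 3659 and 3246 CPM, and Mki67 at 246 and 251 CPM. Vpreb3 was at 445 and 384 CPM over these cells. Within groups 6 and 7 it was at 37.2 CPM in control and 402 CPM in chronic colitis, and within groups 4 and 5 at 959 and 354 CPM. In each pair of groups this difference had the sign of that in the B gate share. Xcr1, which marks type 1 dendritic cells, was at 15.5 and 24.6 CPM.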

How the data were processed

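The authors prepared 5′ single-cell libraries and aligned and counted them with Cell Ranger against mm10 (GRCm38). The submitters' processing notes and the paper name version 6.1.2, and the matrix headers name Cell Ranger 4. The deposited values are UMI counts per gene or hashtag and barcode, not normalized, for every barcode. The other deposited files used were the barcode and feature name lists. Gene UMIs summed to 40114948 in App control and 38405542 in App chronic colitis over all barcodes, of which 34164317 and 33335553 lay in the cells kept. Quality limits left 7089 and 6126 cells. A close second hashtag removed 376 and 356 of these as possible doublets and a low hashtag count 13 and 28. No doublet caller was run, and cells in several gates were kept in each of them.

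Counts were summed over the cells of a gate and scaled to CPM. The genes named were the 3 most increased and the 3 most decreased of those counted in each gate, without receptor segments, ribosomal, mitochondrial and predicted genes and genes below 0.5 times their level over all cells. Members of gene lists were added, up to 4 a list plus those counted. Gates, lists and rules were chosen with earlier results of these data known. Thinning used 1 random draw. The rule for counting genes was checked on counts simulated from T gate levels, with 4 hashtag groups per library and a set spread between them. Gates with fewer groups or wider spread were not simulated, nor were gating, hashtag assignment and thinning. Alternatives covered cell and gene filters, hashtag rules, gate limits, thinning, the pseudocount, the fold, group weighting, the 2 pairs of hashtag groups and leaving out each hashtag group. A few listed genes are not reported here. Coordinates are from GENCODE vM21. Python 3.11.15, numpy 2.4.6, scipy 1.17.1, pandas 2.3.3 and matplotlib 3.10.9 were used.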

Additional observations from a re-analysis of the deposited data

Results flagged for a closer look

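Apoe in the T gate of App control was at 1189 CPM in hashtag group 6, far from the other 3 groups, at 134 to 281 CPM. The macrophage genes C1qa and C1qb were also highest in that group, at 265 and 346 CPM. Fam53a in the NK gate of App control was at 25.3 CPM in hashtag group 4, below 32.3 to 32.8 CPM in the others. These 2 were the only such values in 54 sets of 4 hashtag groups examined, and chance gives about 1 in 20.

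The B gate share changed in opposite directions in the 2 pairs of hashtag groups. The mean of groups 6 and 7 was 15.7 points higher in chronic colitis, and that of groups 4 and 5 was lower, with a change of -9.70 points. This difference was not tested.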

How the results depend on the processing

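The B gate share difference was -9.53 points within hashtag groups 4 and 5 and 15.8 points within groups 6 and 7. The macrophage difference was 0.0861 points within groups 4 and 5, and the neutrophil difference 3.34 points within groups 4 and 5 and -0.178 points within groups 6 and 7. The other 72 share differences under alternatives kept their sign or moved by less than the spread between hashtag groups. Leaving out 1 hashtag group at a time gave -5.15 to 6.92 points for T, -0.951 to 8.01 for B, -1.97 to -0.191 for NK, -1.48 to 0.975 for ILC2, -1.70 to 0.405 for macrophage and 0.869 to 2.32 for neutrophil gate shares, where the sign turned for B without chronic colitis group 6 and for macrophages without control group 6. It also turned for T without control group 5 or 7 or chronic colitis group 4 or 5, and for ILC2 without control group 6 or 7 or chronic colitis group 4 or 5, gates whose whole-library intervals spanned 0.

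Counts of genes depended on the filter, the pseudocount and the groups used. At 20 UMIs and 10 CPM they were 25 for T, 38 for B, 68 for NK, 164 for ILC2, 437 for macrophage and 134 for neutrophil gates. With no filter on low counts they were 28, 40, 85, 231, 608 and 148 in the same order. At 100 UMIs and 100 CPM they were 7 for NK, 9 for ILC2, 41 for macrophage and 21 for neutrophil gates. A pseudocount of 50 gave 12 for B, 2 for NK, 9 for ILC2, 30 for macrophage and 17 for neutrophil gates, and a pseudocount of 1 gave 29 for NK. A 2-fold limit gave 6 for B, 2 for NK, 7 for ILC2, 19 for macrophage and 10 for neutrophil gates. Without the hashtag filter the counts were 17 for T, 31 for ILC2 and 84 for macrophage gates, and with equal weight of hashtag groups 248 for macrophages. Within groups 4 and 5 they were 52 for T, 223 for B and 173 for NK, and within groups 6 and 7 they were 127 for T, 170 for B, 247 for NK, 415 for ILC2, 363 for macrophage and 564 for neutrophil gates, since fewer groups overlap less often by construction. Leaving out 1 hashtag group gave 13 to 21 for T, 23 to 46 for B, 24 to 55 for NK, 55 to 159 for ILC2, 131 to 311 for macrophage and 34 to 187 for neutrophil gates, the highest without control group 4 for NK and macrophage, control group 6 for ILC2, control group 7 for B, chronic colitis group 4 for T and chronic colitis group 5 for neutrophil gates. No gene named by the rule of largest changes turned sign under the alternatives run for its gate. Apoc2 had a log2 ratio of 0.07 in the sparse macrophage gate cells of groups 4 and 5, which were not used for counts. Pf4, named as a list member, had a log2 ratio of -0.24 in the same cells. Not run were the pair of groups 4 and 5 for ILC2, macrophage and neutrophil genes, and macrophage genes without chronic colitis group 6 or 7, where too few groups were left.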
